A study of Mus musculus with 12 samples.

Results

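The genes that decide or mark the choice between the CD4 and CD8 T cell lineages were followed across sorted thymic T cells of the mouse: Cd4, Cd8a, Cd8b1, Zbtb7b, Runx3, Runx1, Cbfb and Myb. The 8 genes were chosen as a list of symbols, by their known roles, among the 13207 genes of the deposited table. All 8 were found in both of its parts, and all 8 passed the filter on low values in both comparisons.

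The cells came from the thymus of C57BL/6 mice that had received tamoxifen intraperitoneally, at 10 μg per g of body weight, 7 days before harvest. Every group was sorted as CD4+, and 3 libraries were made for each of 4 groups. CD73+ newly generated regulatory T cells (new Treg) were tdTomato+GFP+CD73+, and CD73– new Treg were tdTomato+GFP+CD73–. The tdTomato– Treg were bulk GFP+ cells without tdTomato, not divided by CD73, and newly generated conventional T cells (new Tconv) were tdTomato+GFP–CD73–. The labels name neither the alleles behind tdTomato and GFP nor the age and number of mice in a library, and they do not say whether CD8 was used in the gate. Nor do they state whether each library is a separate animal, so the tests speak of variation among libraries, some of which may be technical. The libraries are called A, B and D after a letter in their titles.

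A developing thymocyte that carries both coreceptors keeps one of them and silences the other. The zinc finger factor ThPOK, encoded by Zbtb7b, commits cells to the CD4 lineage, while Runx3 commits them to the CD8 lineage by holding Cd4 and Zbtb7b silent through their silencer elements. Both RUNX factors, Runx3 and Runx1, bind DNA with the same partner, core-binding factor β (Cbfb), and Myb is a DNA-binding factor of immature thymocytes that takes part in the induction of Gata3 and Zbtb7b. Treg develop among the CD4 lineage cells, and Runx1 with Cbfb is also part of the protein complex that Foxp3, the lineage factor of Treg, forms.

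The genes lie on 6 mouse chromosomes in GENCODE M21 (GRCm38, the mm10 assembly). Cd8b1 (ENSMUSG00000053044.8, chr6:71322788-71337494, plus strand) and Cd8a (ENSMUSG00000053977.13, chr6:71373427-71379173, plus strand) are neighbours, 35932 bases apart. Cd4 (ENSMUSG00000023274.14) is elsewhere on that chromosome, at chr6:124864692-124888221 on the minus strand. Zbtb7b (ENSMUSG00000028042.15) is at chr3:89377644-89394776 on the minus strand. Runx3 (ENSMUSG00000070691.10) is at chr4:135120652-135177990 on the plus strand, and Runx1 (ENSMUSG00000022952.17) at chr16:92601466-92826149 on the minus strand. Cbfb (ENSMUSG00000031885.14) is at chr8:105170674-105217989 on the plus strand, and Myb (ENSMUSG00000019982.15) at chr10:21124935-21160984 on the minus strand. Antisense genes overlap Zbtb7b, Runx1, Runx3 and Myb in this annotation, and the antisense gene at Runx3 touches 0 of its exons. The sources used here do not say whether reads were counted by strand. Reads from exons of Zbtb7b, Runx1 and Myb that such a gene overlaps therefore cannot be told apart from its own.

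Because 3 of the members are RUNX proteins or their partner, promoter sequences were searched for the letters that RUNX proteins bind. RefSeq windows (GRCm38.p6) from 250 bases before to 50 bases after a transcription start were given for 6 members, 9 windows in all, with none for Cd4 and Cd8b1. Both strands were searched. The RUNX core TGTGGT was in 3 of the 9 windows of members and in 16.8% of all 32851 windows. A second form of the RUNX core, TGCGGT, was in 1 of the 9 and in 6.45% of all. The MYB core AACTG was in 3 of the 9 and in 44.8% of all, and the GATA core AGATAA was in 0 of the 9 and in 11.2% of all. A match is a run of letters and not a shown binding site.

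The Runx3 and Runx1 windows shared a run of 18 bases that holds 2 RUNX cores on the reverse strand. It was found in 4 of the 32851 windows, those of Runx1, Runx2, Runx3 and Gm16225, a predicted gene whose window overlaps that of Runx3 on the other strand. The lines below show the run in the 3 RUNX genes, in capitals, each 5′ to 3′ on the strand of its gene, because the family's levels are compared further on.
Runx3 (chr4:135120503-135120532, plus strand, run from position −136): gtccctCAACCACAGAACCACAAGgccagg
Runx1 (chr16:92826025-92826054, minus strand, run from position 27): cataaaCAACCACAGAACCACAAGttgggt
Runx2 (chr17:44814583-44814612, minus strand, run from position 22): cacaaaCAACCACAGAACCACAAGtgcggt
Positions are counted from the first transcribed base, which is 1.

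Single RUNX core matches were found in windows of Zbtb7b and Cd8a, which are the genes of the CD4 fate factor and of a coreceptor that RUNX proteins are known to regulate. They are printed with the RUNX core in capitals, and in the Zbtb7b window an AACTG overlaps the core.
Zbtb7b (chr3:89387743-89387772, minus strand): ctggcgaggaacTGTGGTatgtgagtgggt
Cd8a (chr6:71373447-71373476, plus strand): ccccgaccctacacgcctcccccACCGCAc
The 250 bases before the upstream start of Runx3, the member with the widest range of group means, are given with both reverse-strand cores in capitals.
Runx3 (chr4:135120395-135120644, plus strand): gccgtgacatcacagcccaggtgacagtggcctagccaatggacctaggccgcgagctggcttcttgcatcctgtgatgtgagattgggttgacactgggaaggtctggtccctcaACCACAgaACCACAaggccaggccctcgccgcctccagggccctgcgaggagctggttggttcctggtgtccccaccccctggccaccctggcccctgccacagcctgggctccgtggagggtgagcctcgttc

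Levels are log2 CPM (read counts scaled to a common library size), scaled by the authors in 2 tables of 6 libraries, one with both groups of new Treg and one with tdTomato– Treg and new Tconv. Groups were tested only within a table, and levels set across the tables are descriptions. The effective depth read from the lowest values was 11000000 to 21400000 counts per library, so 3 counts, the limit for a gene without counts, correspond to a log2 CPM between −2.61 and −1.65 (counting error only). Foxp3 averaged 9.19 ± 0.07, 9.16 ± 0.05 and 9.11 ± 0.05 log2 CPM in CD73+ new Treg, CD73– new Treg and tdTomato– Treg, against 0.18 ± 0.85 in new Tconv (SD, n = 3 each). Nt5e, the gene of CD73, averaged 7.29, 5.54 and 8.21 in the same Treg groups and 3.88 in new Tconv, and was thus higher in the CD73+ than in the CD73– new Treg. In bulk libraries such as these, fewer cells of a type and less RNA per cell cannot be told apart.

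No member passed the test between CD73+ and CD73– new Treg in the fit without a block, while between tdTomato– Treg and new Tconv 6 members fell and Myb rose. Cd4, Cd8b1, Zbtb7b, Runx3, Runx1 and Cbfb were lower in tdTomato– Treg, by between 0.29 and 0.89 on the log2 scale, and Myb was higher by 1.02. These 7 of 8 members past an adjusted p of 0.05 stand against 52.1% of all 11198 genes tested in that comparison, a background in which most genes passed. By direction, 6 members were lower where 25.7% of all genes were, and 1 was higher where 26.4% were. The median log2 fold change of the 8 members was −0.70, against −0.01 over all genes tested. At an unadjusted p under 0.05 the members past it were the same 7, with 57.1% of all genes. The ranges of the groups did not overlap for these 7 members, and for 60.9% of all genes.

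Between CD73+ and CD73– new Treg, 0 of 8 members passed with limma, against 2.44% of 11170 genes tested, and 0 passed in the authors' deposited table. With the title letters as a replicate block 2 of 8 passed, Runx3 (adjusted p = 0.0179) and Runx1 (adjusted p = 0.0476), against 5.64% of all genes (630). At an unadjusted p under 0.05 there were 4, Runx3, Cd8b1, Runx1 and Cd4, where 17.2% of all genes were. The ranges did not overlap for 1 member, Cd4, and for 18.2% of all genes. The median log2 fold change was −0.12 over the members and 0.01 over all genes.

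**Figure D1:**
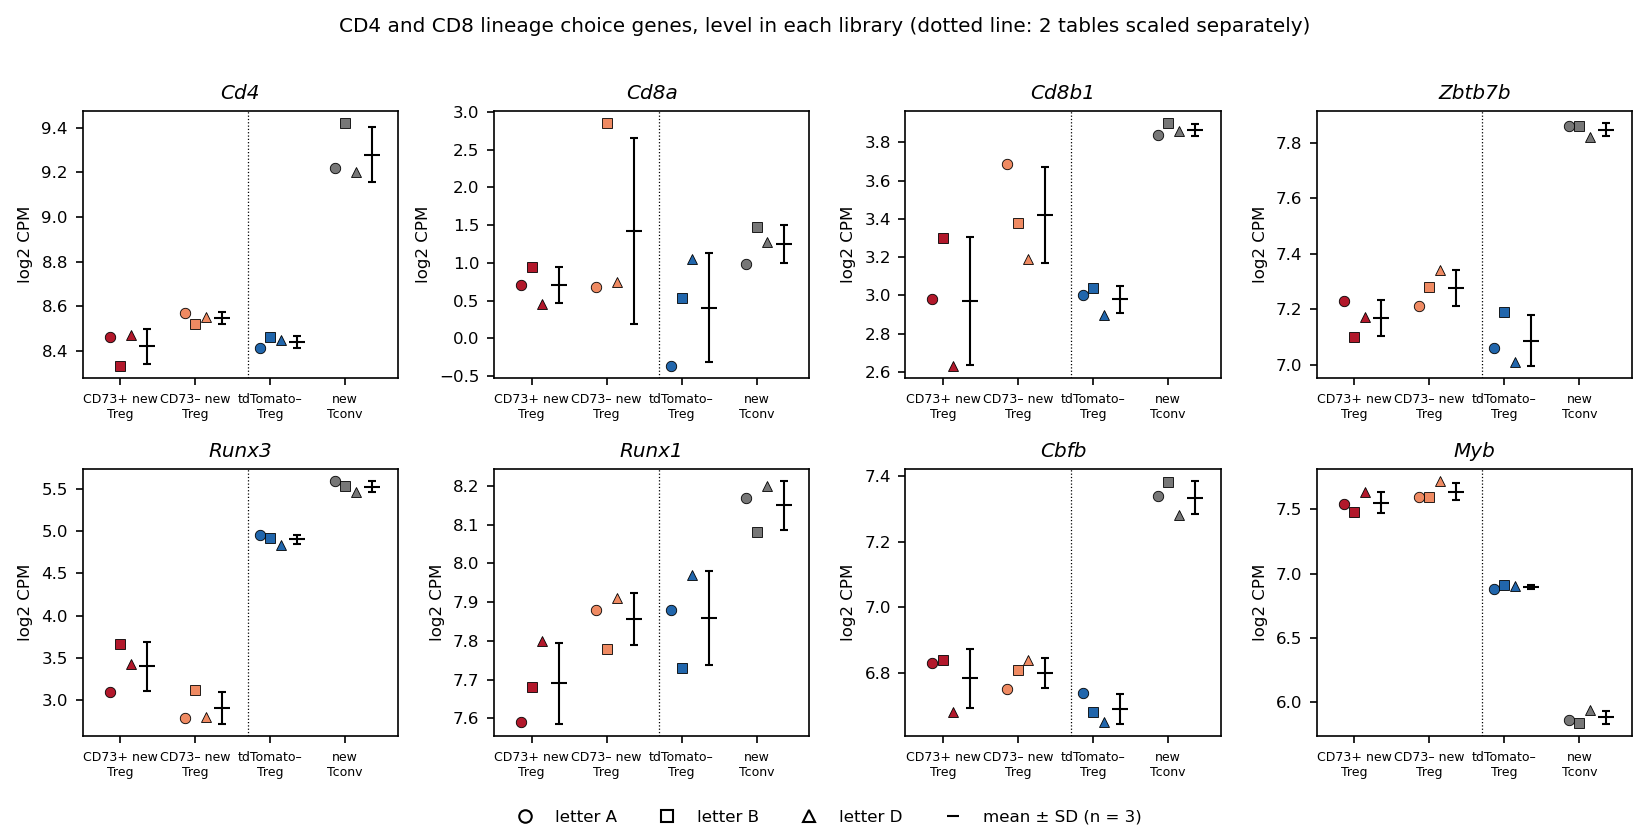
Level of each of the 8 genes in each library, as log2 CPM on the vertical axis, in 4 sorted groups; symbols are the libraries A, B and D, and bars are the mean ± SD (n = 3). The dotted line parts the 2 tables that the authors scaled separately. New Tconv hold the highest Cd4, Zbtb7b, Runx3, Runx1 and Cbfb and the lowest Myb, and Runx3 is lowest in both groups of new Treg.

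The coreceptors come first. Cd4 encodes the coreceptor for MHC class II, and all cells were sorted for its protein. Its level was 8.41, 8.46 and 8.45 log2 CPM in tdTomato– Treg (A, B and D), against 9.22, 9.42 and 9.20 in new Tconv. The 3 new Tconv libraries were all above the tdTomato– Treg, by 1.79-fold on average (log2 fold change −0.84, SE 0.06, adjusted p = 2.17e-09). Of all genes tested, 6.07% fell further. In new Treg Cd4 was at 8.46, 8.33 and 8.47 in CD73+ cells, against 8.57, 8.52 and 8.55 in CD73– new Treg. The CD73+ libraries were all below the CD73– ones, by a margin that did not pass the test (log2 fold change −0.13, 95% interval −0.25 to −0.01, adjusted p = 0.266).

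Cd8a and Cd8b1 encode the α and β chains of the CD8 coreceptor, and neither is kept on in mature CD4 cells. Cd8b1 was at 3.00, 3.04 and 2.90 log2 CPM in tdTomato– Treg, from 109 to 127 counts, against 3.84, 3.90 and 3.86 in new Tconv, from 250 to 319 counts. It was 1.85-fold higher in new Tconv, with every library of one group below every library of the other (log2 fold change −0.89, SE 0.16, adjusted p = 2.52e-04). Among new Treg it was at 2.98, 3.30 and 2.63 in CD73+ cells, against 3.69, 3.38 and 3.19 in CD73– new Treg. These ranges overlapped, and the difference did not pass (log2 fold change −0.45, 95% interval −0.80 to −0.10, adjusted p = 0.166).

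Cd8a had few counts and the widest spread of the members. In tdTomato– Treg it was at −0.37, 0.54 and 1.05 log2 CPM, from 10.1 to 32.9 counts, against 0.98, 1.48 and 1.28 in new Tconv, from 34 to 59.2 counts. The groups overlapped and the difference did not pass (log2 fold change −0.84, 95% interval −1.87 to 0.19, adjusted p = 0.161). The same estimate as for Cd4 thus came with an interval that reached from a large decrease to a small increase. With quantile normalisation in place of the authors' scaling, Cd8a passed, at a log2 fold change of −1.51 and an adjusted p of 0.0154.

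Between the groups of new Treg, Cd8a rested on a single library. It was at 0.71, 0.94 and 0.46 log2 CPM in CD73+ new Treg, against 0.68, 2.85 and 0.75 in CD73– new Treg. CD73– library B, with 124 counts, was far above the other 5 libraries, and its own group mates lay among the CD73+ libraries. The difference was −0.72 with all libraries (95% interval −1.75 to 0.30, adjusted p = 0.471) and −0.01 without CD73– library B (adjusted p = 0.993). The same library was high in markers of double-positive thymocytes, the immature stage with both coreceptors. There Rag1, which cuts antigen receptor genes, was at 4.75 log2 CPM, against 2.72 and 2.70 in CD73– libraries A and D. Dntt, which adds bases at receptor joints, was at 4.35, against 2.92 and 2.85, and Arpp21 at 4.50, against 3.48 and 2.96. Cd8b1, with 3.38, was between A and D in that library. Over the 9 double-positive markers, all in the table, the summed CPM was 213 to 244 in CD73+ new Treg and 280 to 358 in CD73– new Treg, with 358 in library B. Most of each sum came from Themis, at 7.33 to 7.53 log2 CPM in CD73+ new Treg and 7.73 to 7.92 in CD73– new Treg. The sums thus mainly follow that gene and do not describe the other markers. Of these markers 7 were tested, and Themis and Aqp11 were lower in CD73+ new Treg, where 0.654% of all genes were. Themis (adjusted p = 0.00271) kept its call in 14 of 15 alternatives, with 0.0552 without the libraries of letter D, and Aqp11 (adjusted p = 0.0333) in 6 of 15, with adjusted p up to 0.123.

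**Figure D2:**
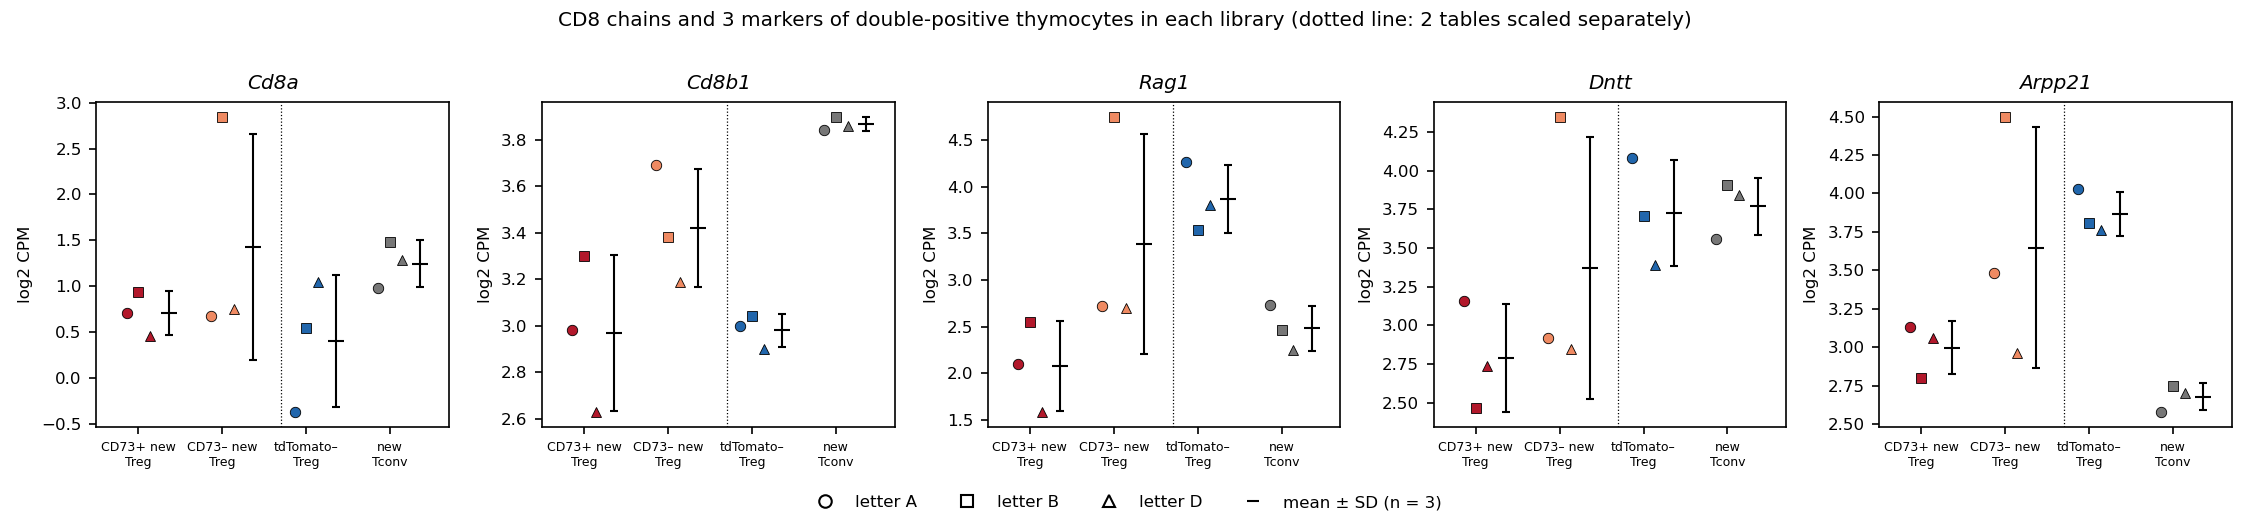
Levels in log2 CPM (vertical axes) of the CD8 chain genes and of 3 genes of double-positive thymocytes in every library of the 4 groups; symbols are libraries A, B and D, bars the mean ± SD (n = 3), and the dotted line parts the separately scaled tables. In CD73– new Treg, library B is highest in Cd8a (2.85), Rag1 (4.75), Dntt (4.35) and Arpp21 (4.50) but not in Cd8b1 (3.38).

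The fate factors follow. Zbtb7b, the gene of ThPOK, was at 7.06, 7.19 and 7.01 log2 CPM in tdTomato– Treg, against 7.86, 7.86 and 7.82 in new Tconv. The groups were far apart for their spread, and new Tconv were 1.69-fold higher (log2 fold change −0.76, SE 0.06, adjusted p = 6.71e-09). Among new Treg Zbtb7b was at 7.23, 7.10 and 7.17 in CD73+ cells, against 7.21, 7.28 and 7.34 in CD73– new Treg, with overlapping ranges (log2 fold change −0.11, 95% interval −0.23 to 0.01, adjusted p = 0.334). All 3 Treg groups thus held Zbtb7b between 7.01 and 7.34.

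Runx3 had the widest range of group means of the 8 members, 2.90 to 5.53 log2 CPM across the separately scaled tables. It was at 4.95, 4.92 and 4.84 log2 CPM in tdTomato– Treg, from 421 to 467 counts, against 5.59, 5.53 and 5.46 in new Tconv, from 792 to 989 counts. New Tconv were 1.54-fold higher, without overlap (log2 fold change −0.62, SE 0.13, adjusted p = 7.62e-04). In new Treg it was lower than in either of those groups, at 3.10, 3.67 and 3.43 in CD73+ cells, from 133 to 196 counts, against 2.79, 3.12 and 2.80 in CD73– cells, from 76.1 to 150 counts. The mean of tdTomato– Treg was 1.50 log2 units above that of CD73+ new Treg, a distance across separately scaled tables that was not tested. Runx3 was thus low in the GFP+ cells that carried tdTomato and higher in the GFP+ cells that did not.

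The CD73+ cells held more Runx3 than the CD73– cells on average, with a log2 fold change of 0.50 (SE 0.13, 95% interval 0.22 to 0.77). Within the letters A, B and D the CD73+ library was higher by 0.31, 0.55 and 0.63. The ranges met at CD73+ library A (3.10) and CD73– library B (3.12), and the adjusted p was 0.0573. It was 0.0179 with the title letter as a replicate block, 0.0196 without CD73+ library A (log2 fold change 0.65) and 0.0243 without CD73– library B (0.61). Over all 15 alternatives it lay between 0.0179 and 0.373, with 3 past the threshold, and the authors' deposited table gave a log2 fold change of 0.47 with an adjusted p of 0.288.

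Runx1, the RUNX protein of immature thymocytes, was close to level across the groups. It was at 7.88, 7.73 and 7.97 log2 CPM in tdTomato– Treg, against 8.17, 8.08 and 8.20 in new Tconv. This was the smallest of the 7 differences that passed, 1.22-fold higher in new Tconv (log2 fold change −0.29, SE 0.07, adjusted p = 0.00149), and 23.1% of all genes fell further. Runx1 was at 7.59, 7.68 and 7.80 in CD73+ new Treg, against 7.88, 7.78 and 7.91 in CD73– new Treg. The difference did not pass (log2 fold change −0.17, 95% interval −0.31 to −0.03, adjusted p = 0.206), except with the replicate block (adjusted p = 0.0476).

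Cbfb, the shared partner of the RUNX proteins, does not bind DNA by itself. It was at 6.74, 6.68 and 6.65 log2 CPM in tdTomato– Treg, against 7.34, 7.38 and 7.28 in new Tconv. New Tconv were 1.56-fold higher, without overlap (log2 fold change −0.64, SE 0.06, adjusted p = 5.30e-08). It was at 6.83, 6.84 and 6.68 in CD73+ new Treg and at 6.75, 6.81 and 6.84 in CD73– new Treg. That was the smallest difference of the members (log2 fold change −0.02, 95% interval −0.14 to 0.10, adjusted p = 0.912).

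Myb ran the other way. It was at 6.88, 6.91 and 6.90 log2 CPM in tdTomato– Treg, against 5.86, 5.84 and 5.94 in new Tconv, and was thus 2.02-fold higher in tdTomato– Treg (log2 fold change 1.02, SE 0.06, adjusted p = 1.19e-10). Of all genes tested, 11.4% rose further. In new Treg it was higher still, at 7.54, 7.48 and 7.64 in CD73+ cells, against 7.60, 7.60 and 7.72 in CD73– cells, which overlapped (log2 fold change −0.09, 95% interval −0.20 to 0.03, adjusted p = 0.447). The order of the groups was therefore both new Treg groups, then tdTomato– Treg, then new Tconv, with no overlap between these steps.

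**Figure D3:**
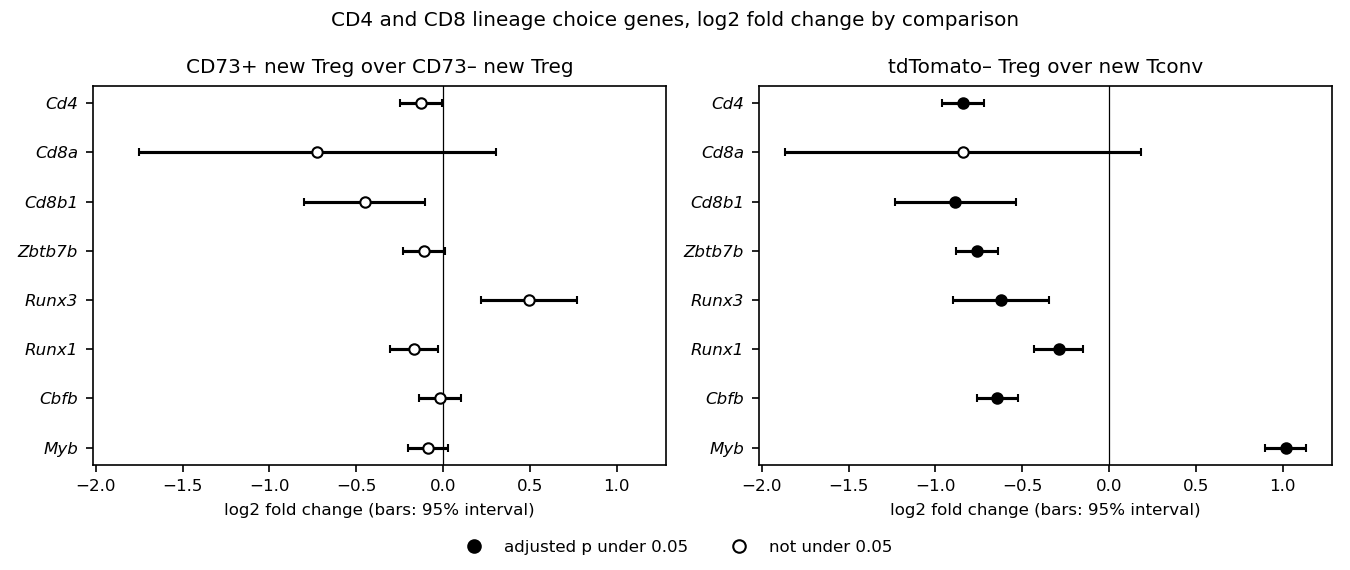
Log2 fold change of each gene (horizontal axis, bars are 95% intervals of the fit without a replicate block) for CD73+ over CD73– new Treg, left, and tdTomato– Treg over new Tconv, right; filled points have an adjusted p under 0.05 in that fit. On the left no point is filled and Runx3 lies highest at 0.50, and on the right 6 genes lie below 0, Myb lies at 1.02 and the interval of Cd8a spans 0.

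Ordered by group mean, the highest level was in new Tconv for Cd4, Cd8b1, Zbtb7b, Runx3, Runx1 and Cbfb, and none of the new Tconv libraries overlapped with the next group in these 6 genes. Below new Tconv, all Treg groups overlapped with each other for Runx1. For Zbtb7b and Cbfb, CD73+ new Treg overlapped with both other Treg groups. CD73– new Treg lay only just above tdTomato– Treg in these genes. The lowest CD73– and highest tdTomato– values were 7.21 and 7.19 for Zbtb7b, and 6.75 and 6.74 for Cbfb. Steps between new Treg and tdTomato– Treg cross the separately scaled tables, so gaps this small do not set an order. For Cd4 and Cd8b1, CD73– new Treg came second, without overlap with the next group, tdTomato– Treg, which in turn overlapped with CD73+ new Treg. For Cd8a the CD73– new Treg had the highest mean only through library B (2.85). Their libraries A and D (0.68 and 0.75) lay within the range of CD73+ new Treg and below every new Tconv library. The tdTomato– Treg overlapped with every other group in Cd8a, and only CD73+ new Treg and new Tconv did not overlap. Only levels per length can be compared between genes. Per kilobase of exon, mean log2 CPM in CD73+ new Treg was 6.41 for Cd4, 4.98 for Cbfb, 4.68 for Zbtb7b, 4.39 for Myb, 4.10 for Runx1, 2.40 for Cd8b1, 1.08 for Runx3 and −1.16 for Cd8a. On the same scale it was 7.27 for Cd4, 5.53 for Cbfb, 5.36 for Zbtb7b, 4.56 for Runx1, 3.30 for Cd8b1, 3.20 for Runx3, 2.72 for Myb and −0.62 for Cd8a in new Tconv. Cd4 led and Cd8a was last in both, and Myb was the member that changed place by most.

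Differences between 2 genes within a library are free of the scaling between libraries and tables, and are given as log2 CPM differences, not per length, with no test. Zbtb7b exceeded Runx3 by 3.77 ± 0.35 in CD73+ new Treg, 4.37 ± 0.19 in CD73– new Treg, 2.18 ± 0.08 in tdTomato– Treg and 2.32 ± 0.05 in new Tconv (SD, n = 3 each). The excess of Zbtb7b RNA over Runx3 RNA was thus larger in both new Treg groups (3.43 to 4.54) than in the other 2 groups (2.11 to 2.36). Zbtb7b itself was highest in new Tconv, and Runx3 was lowest in both new Treg groups. The proteins of these 2 genes were not measured here. Runx3 minus Runx1 was −4.29 ± 0.25 in CD73+ new Treg, −4.95 ± 0.25 in CD73– new Treg, −2.96 ± 0.16 in tdTomato– Treg and −2.62 ± 0.10 in new Tconv. The ranges of CD73+ new Treg (−4.49 to −4.01) and CD73– new Treg (−5.11 to −4.66) did not overlap in this difference, in which the ranges of Runx3 alone did.

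Myb minus Runx1, a difference added after the values were seen, was −0.14 ± 0.08 in CD73+ new Treg, −0.22 ± 0.06 in CD73– new Treg, −0.96 ± 0.13 in tdTomato– Treg and −2.27 ± 0.04 in new Tconv. Cd4 exceeded Cd8a by 7.72 ± 0.31, 7.12 ± 1.26, 8.03 ± 0.70 and 8.03 ± 0.18 in the same order of groups, with the lowest value, 5.67, in CD73– library B.

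**Figure D4:**
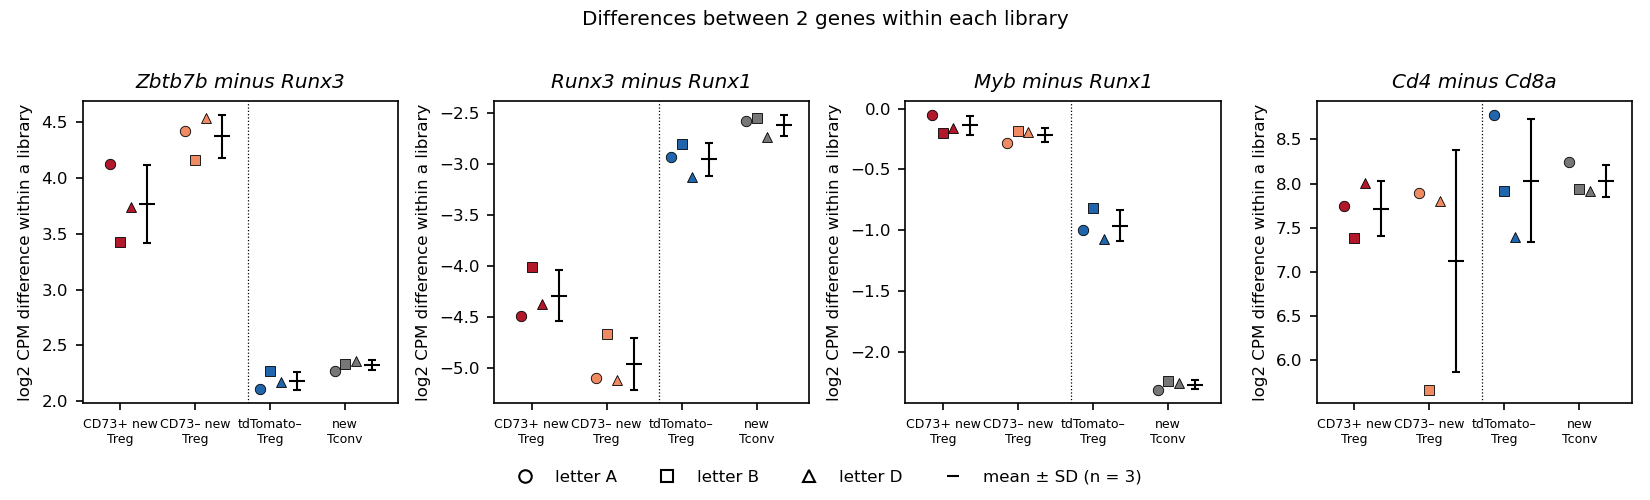
Difference in log2 CPM between 2 genes within each library (vertical axes) in the 4 groups; symbols are libraries A, B and D, bars the mean ± SD (n = 3), and the dotted line parts the 2 tables. Zbtb7b minus Runx3 lies between 3.43 and 4.54 in both groups of new Treg and between 2.11 and 2.36 in the other groups, and Myb minus Runx1 is lowest in new Tconv, at −2.27 on average.

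For each member the 3 genes with the highest Pearson r of log2 CPM over the 12 libraries were taken, each gene centred on its mean in its own table, among 8050 candidates. These libraries share their groups and their scaling, so the values only describe. For Cd4 they were Sept6, Cd3g and Cd247 (r from 0.990 to 0.995), of which Cd3g and Cd247 encode chains of the T cell receptor complex. For Zbtb7b they were Fam78a, Tuba4a and Maml2 (0.982 to 0.985), and for Cbfb they were Pim2, Arhgap11a and Atp1b1 (0.985 to 0.987). For Runx3 they were Pcmt1, Pwp1 and Ube2a (0.949 to 0.963), and for Runx1 they were Ccnd3, Ankrd44 and Csgalnact2 (0.947 to 0.951). For Myb they were Frmd4b, Cd86 and Vav2 (0.992 to 0.993). For Cd8b1 they were Slc25a15, Eif3j1 and Fbxw2 (0.951 to 0.960). Those of Cd8a, Ube3a, Esco1 and Ifih1, were the least close (0.868 to 0.903).

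Around the members, 66 genes of 5 pathway lists were counted. The first list held 21 regulators of CD4 fate and of the silencing of coreceptor genes. In tdTomato– Treg 12 of them fell and 3 rose relative to new Tconv, where 25.7% of all genes fell and 26.4% rose. The list median was −0.26. Satb1, a chromatin organiser of thymocytes, averaged 9.84 ± 0.06 log2 CPM in tdTomato– Treg and 11.53 ± 0.02 in new Tconv (log2 fold change −1.69, SE 0.05, adjusted p = 1.00e-13). Tcf7, which encodes TCF-1, and Ikzf1, which encodes Ikaros, fell by 1.68 and 1.24 on the log2 scale. Those that rose were Zbtb7a (0.74), a relative of Zbtb7b, Gata3 (0.49), which acts upstream of Zbtb7b, and the histone deacetylase gene Hdac1 (0.40). In CD73+ new Treg 1 of the 21 fell relative to CD73– new Treg, where 0.654% of all genes did. With the replicate block 2 passed, Satb1 and Lef1, where 5.64% of all genes did. In the fit without a block it was Satb1, at 10.55 ± 0.10 in CD73+ new Treg and 10.88 ± 0.07 in CD73– new Treg (log2 fold change −0.32, SE 0.05, adjusted p = 0.00435). The list median there was −0.01.

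The second list held 12 RUNX and MYB relatives and cofactors. Of these 3 rose and 3 fell in tdTomato– Treg relative to new Tconv, with a median of 0.04, close to the shares of all genes that rose (26.4%) and fell (25.7%). Runx2, the remaining RUNX gene, averaged 4.56 ± 0.13 log2 CPM in tdTomato– Treg and 1.76 ± 0.27 in new Tconv (log2 fold change 2.80, SE 0.14, adjusted p = 3.68e-11). It moved opposite to Runx1 and Runx3, with which it shares the run of 18 bases printed above. The Groucho corepressor genes, whose products RUNX proteins recruit, were split, with Tle2 (1.47) and Tle1 (0.66) higher and Tle4 (−0.60) and Tle3 (−0.35) lower. Mybl2, a relative of Myb, also fell (−0.51, adjusted p = 0.0484), a call that was lost under 8 alternatives with adjusted p from 0.0515 to 0.332. None of the 12 passed between CD73+ and CD73– new Treg (median −0.05), where 2.44% of all genes did.

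The third list held 9 genes of the cytokine signalling linked to Runx3 and the CD8 choice, among them an inhibitor of it. Its counts are therefore not a measure of the strength of that signalling. In tdTomato– Treg 6 rose and 3 fell relative to new Tconv, where 26.4% of all genes rose and 25.7% fell. The list median was 0.37. Those that rose with the lowest p-values were Stat5a (1.22), Jak3 (1.01) and Stat6 (0.52). The receptor gene Il7r (−0.42) and the shared receptor chain gene Il2rg (−0.30) were among the lower ones, with the kinase gene Jak1 (−0.30). In CD73+ new Treg Il7r rose, to 6.21 ± 0.20 log2 CPM, against 5.48 ± 0.23 in CD73– new Treg (log2 fold change 0.73, SE 0.10, adjusted p = 0.00133). It was the only one of the 9 to pass there, where 1.79% of all genes rose, and the list median was 0.04.

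The fourth list held 18 genes of the cytotoxic CD8 programme, of which 15 were tested. In tdTomato– Treg 10 rose and 1 fell relative to new Tconv, where 26.4% of all genes rose and 25.7% fell. The list median was 1.79. Itgae, which encodes the integrin CD103 and is also known in Treg, averaged 7.79 ± 0.07 log2 CPM in tdTomato– Treg and 0.78 ± 0.02 in new Tconv (log2 fold change 7.02, SE 0.11, adjusted p = 9.33e-18). Nkg7, a granule membrane gene, rose by 3.94 from a low level, with 130 to 132 counts in tdTomato– Treg libraries and 8.01 to 15.1 in new Tconv libraries, and Ctsw, a protease gene, rose by 1.06. Crtam fell by 1.41 (adjusted p = 0.0123, and 0.0664 without tdTomato– library A).

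In CD73+ new Treg 3 of these 15 rose relative to CD73– new Treg, where 1.79% of all genes did. The list median was 0.49. Itgae was 1.88 log2 units higher (SE 0.11, adjusted p = 2.42e-08). Nkg7 was 1.68 higher (SE 0.26, adjusted p = 0.00266, and 0.0682 without the libraries of letter D). Ccl5, a chemokine gene, had 27.0 to 33.1 counts in CD73+ libraries and from 0.995 to 6.00 in CD73– libraries (adjusted p = 0.00353, and 0.0546 with only these 2 groups in the fit).

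The fifth list held 6 helper T cell products, of which 5 were tested. Icos (1.39), a costimulatory receptor gene, Cxcr5 (5.68), a chemokine receptor gene, and Tnfsf8 (1.66) rose in tdTomato– Treg relative to new Tconv. Cd40lg, which encodes the CD40 ligand, averaged 2.51 ± 0.07 log2 CPM in tdTomato– Treg and 5.56 ± 0.19 in new Tconv (log2 fold change −3.05, SE 0.16, adjusted p = 5.69e-11). Il21 was at the limit of detection in tdTomato– Treg, with 0 to 0.995 counts, against 42 to 104 in new Tconv (adjusted p = 1.33e-05). Of the 5 tested, 3 rose and 2 fell, where 26.4% of all genes rose and 25.7% fell, and the list median was 1.39. None of the 5 passed between CD73+ and CD73– new Treg (median 0.16), where 2.44% of all genes did.

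**Figure D5:**
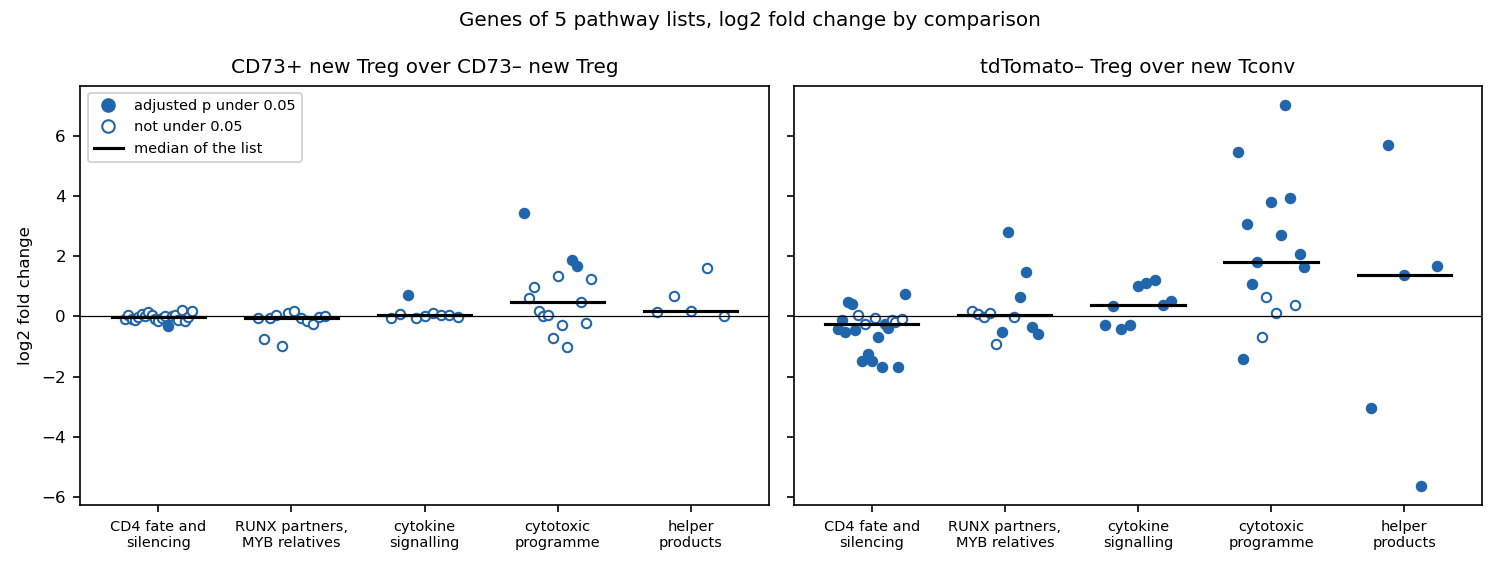
Log2 fold change (vertical axis) of the tested genes of 5 pathway lists for CD73+ over CD73– new Treg, left, and tdTomato– Treg over new Tconv, right; filled points have an adjusted p under 0.05 and bars are list medians. The highest filled point on the left is Ccl5 and the lowest on the right is Il21, both fitted against a group with hardly any counts, and the right-hand medians run from −0.26 for CD4 fate and silencing to 1.79 for the cytotoxic programme.

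Summed levels of markers of other cells were apart between tdTomato– Treg and new Tconv, although single markers within some lists went both ways. The summed CPM of the 9 double-positive markers was 199 to 215 in tdTomato– Treg and 374 to 380 in new Tconv. Most of each sum came from Themis, at 6.89 ± 0.03 log2 CPM in tdTomato– Treg against 8.29 ± 0.02 in new Tconv. Arpp21 and Rag1 went the other way and were higher in tdTomato– Treg, so the sums do not describe the other markers. Of 7 markers of innate-like T and NK cells, 4 were in that table, with summed CPM of 1.65 to 2.38 in tdTomato– Treg and 10.0 to 12.7 in new Tconv, and Klra1 was without counts in all tdTomato– Treg libraries. Of 9 dendritic cell markers, 6 were in it, at 47.9 to 55.5 in tdTomato– Treg and 24.9 to 27.1 in new Tconv, and Flt3 was without counts in all tdTomato– Treg libraries. The 6 B cell markers summed to 7.89 to 10.3 in tdTomato– Treg and 3.47 to 4.85 in new Tconv. In the table of new Treg, 3 of the 7 innate-like, 5 of the 9 dendritic and all 6 B cell markers were present. The innate-like and dendritic sums there thus cover fewer markers than those above. In CD73+ and CD73– new Treg, the innate-like sums were 2.91 to 3.39 and 1.32 to 2.05. Dendritic cell sums were 33.8 to 37.6 and 28.0 to 38.1, and B cell sums 4.02 to 4.82 and 3.63 to 6.07, both with overlap. The part of these cells in the levels of the members was not tested.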

How the data were processed

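Sequencing libraries were prepared by the KAPA RNA HyperPrep protocol from TRIzol-extracted RNA, per the labels. The submitters' processing notes list STAR, RSEM and limma, with mm10 as the build, and no versions are given in the sources used here. For each gene and library the authors deposited a log2 CPM, in 2 separately scaled tables of 6 libraries each. The unit was read from the values: genes without counts share the lowest value of a library, the level of an offset of 0.5 counts. The authors deposited p-values and adjusted p-values as well, and a t statistic, a score that was not used. Counts given here are back-calculated from log2 CPM and effective depth.

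The 2 comparisons within a table were tested with limma 3.58.1 in R 4.3.3 on the deposited log2 values, with 4 group means over all 12 libraries, an intensity trend and two-sided tests. A gene was tested where 3 or more libraries reached a log2 CPM of 0. Benjamini-Hochberg adjustment covered every gene tested in a comparison, and the threshold was 0.05. The procedure was tested on simulated data.

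The members and lists were chosen with earlier results of these data known. Named genes are the members, up to 3 genes per list and direction by p-value, the marker lists, and the 3 genes most like each member with a mean log2 CPM of at least 3. Gene IDs gave the names of 22 symbols deposited as dates. The letters A, B and D were not part of the main fit, so its tests do not use pairing by letter. They entered only as the replicate block, an alternative. Same-letter deviations from group means correlated at 0.197, 0.360 and 0.302 between CD73+ and CD73– new Treg (8229 genes). Between tdTomato– Treg and new Tconv they correlated at 0.170, 0.174 and 0.123. All lay above the limit of 0.1 set for reading the letters as pairs. Alternatives were other filters, only 2 groups in the fit, a replicate block, quantile normalisation, a median shift, no trend, libraries left out, and the authors' own test. Protein sequences were not used here. The result of 1 gene of the marker lists is not reported here.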

Additional observations from a re-analysis of the deposited data

How the results depend on the processing

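Between tdTomato– Treg and new Tconv the count of members past the threshold was 7 under every alternative but quantile normalisation (8, with Cd8a), and Cd4, Cd8b1, Zbtb7b, Runx3, Runx1, Cbfb and Myb passed in all 15 alternatives. The adjusted p of Cd8a lay between 0.0154 and 0.504. Between CD73+ and CD73– new Treg the count of members was 0, except 2 with the replicate block (Runx3 and Runx1), and 0 to 1 when single libraries were left out. The count over all genes there, 273, was 630 with the replicate block, 151 with only these 2 groups in the fit, 107 with no intensity trend, 46 without the libraries of letter D and 151 in the authors' deposited table. It ranged from 95 to 360 when single libraries were left out: 99 without CD73+ library A, 95 without CD73+ library B, 157 without CD73– library A, 127 without CD73– library D and 360 without CD73– library B. The replicate block changed the call of Runx3 and Runx1, and of the markers Rag1 (adjusted p = 0.0265) and Cst3 (0.0499), between CD73+ and CD73– new Treg, and that of Mybl2 in the other comparison, and it brought the list gene Lef1 past the threshold between the groups of new Treg and Ep300 and Tcf12 between tdTomato– Treg and new Tconv. Of 64 group levels recomputed under other scalings, 6 moved by more than 1 SD, as did 2 of 32 differences within libraries. No named gene past the threshold changed direction. Depth limited Cd8a, with as few as 10.1 counts in a library.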
